A study of Mus musculus with 5 samples.

Results

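The genes of mitosis and chromosome segregation described here are 58 named genes that drive or carry out cell division, of 19938 genes with values on each of 5 arrays, which were run on natural helper cells from mouse lung. They were chosen by name, from those with a probe set annotated to exactly 1 gene symbol, and all 58 were measured. Natural helper cells belong to the group 2 innate lymphoid cells, which lack antigen receptors and make type 2 cytokines. The donors were C57Bl/6 mice, naive and 6 to 8 weeks old, and lung leukocytes were sorted by flow cytometry for Sca-1, CD127 and CD25, with absent or low c-Kit and no lineage markers. The 3 unstimulated samples were lysed directly after the sort. The 2 stimulated samples spent 3 days in 200 microlitres of culture medium that held 60 ng/ml of the protein kinase C activator PMA, a phorbol ester, and 500 ng/ml of ionomycin, a calcium ionophore. No sample was cultured without these agents, so culture and stimulation cannot be told apart. Whether the samples of a group stem from different mice or cultures is not stated in the labels, so a p-value here reflects no more than how far these samples spread, and that spread may be technical.

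A cell that divides first copies its DNA, then raises the activity of the kinase CDK1 with its cyclins, condenses its chromosomes and attaches them to spindle microtubules through kinetochores. Once the spindle checkpoint is satisfied, the anaphase promoting complex marks cyclins and securin for destruction, which frees separase to part the sister chromatids, and cytokinesis then divides the cell. Most genes of this program are transcribed late in the cell cycle and are silent in resting cells, so that their RNA is often used as a sign of dividing cells. Many of their promoters share a cell cycle homology region with the letters TTTGAA, which is bound by MuvB complexes, and CCAAT boxes, which are bound by NF-Y.

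The promoters of the mitosis genes held these letters more often than promoters at large. RefSeq promoter windows, which run from 250 bases before to 50 bases after a gene's start in GRCm38.p6, were matched by symbol for 48 of the 58 genes, in 53 windows. Both strands were searched, and TTTGAA occurred in 35 of the 53 windows (66.0%), against 17.9% of all 32851 windows of that length. CCAAT occurred in 40 (75.5%), against 37.4%, and both sets of letters in 31 (58.5%), against 6.95%. Other forms of the homology region were searched too, and TTCGAA was in 4 windows (7.55% against 1.56%) and TTTAAA in 9 (17.0% against 13.2%). The 3 forms of the homology region cannot overlap one another, a CCAAT box can share 1 letter with one of them, and a match is a description of the sequence, not a binding site. The 150 bases before the start are shown for Cdk1 and Cdc20, which hold both motifs, for Kif15, Bub3 and Ncaph, whose differences are among those described below, with capitals marking TTTGAA (or TTCAAA, the same letters on the other strand) and CCAAT (or ATTGG). Bub3 has 2 windows in the table and the first is shown.
Cdk1 (chr10:69352913-69353062, minus strand): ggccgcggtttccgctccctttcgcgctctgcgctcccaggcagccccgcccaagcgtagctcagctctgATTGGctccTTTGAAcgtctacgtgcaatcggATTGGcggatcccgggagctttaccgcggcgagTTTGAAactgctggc
Cdc20 (chr4:118437344-118437493, minus strand): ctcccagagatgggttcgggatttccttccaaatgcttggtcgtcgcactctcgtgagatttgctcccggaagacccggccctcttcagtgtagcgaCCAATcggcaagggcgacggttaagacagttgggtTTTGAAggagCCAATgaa
Kif15 (chr9:122950931-122951080, plus strand): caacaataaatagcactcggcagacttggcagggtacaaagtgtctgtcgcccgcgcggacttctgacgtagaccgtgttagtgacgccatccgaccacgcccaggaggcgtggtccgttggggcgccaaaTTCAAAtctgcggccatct
Bub3 (chr7:131560220-131560369, plus strand): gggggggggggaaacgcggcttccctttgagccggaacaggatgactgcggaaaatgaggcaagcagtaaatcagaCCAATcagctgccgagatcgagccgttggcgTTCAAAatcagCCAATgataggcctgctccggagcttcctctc
Ncaph (chr2:127133955-127134104, minus strand): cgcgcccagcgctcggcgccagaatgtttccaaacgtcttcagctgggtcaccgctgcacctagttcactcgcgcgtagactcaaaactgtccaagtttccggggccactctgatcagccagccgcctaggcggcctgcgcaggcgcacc
Homology region letters lay close to the start in Cdk1 (with a second match further upstream), Cdc20 and Kif15, and between 2 CCAAT boxes in Bub3. The Ncaph stretch held no match. Across the members, matches to TTTGAA gathered around the gene start: 18.9%, 20.8% and 17.0% of their windows had a match that began in the 3 bins from -40 to 50, where 1.8%, 1.6% and 1.2% of all windows had one.

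**Figure D1:**
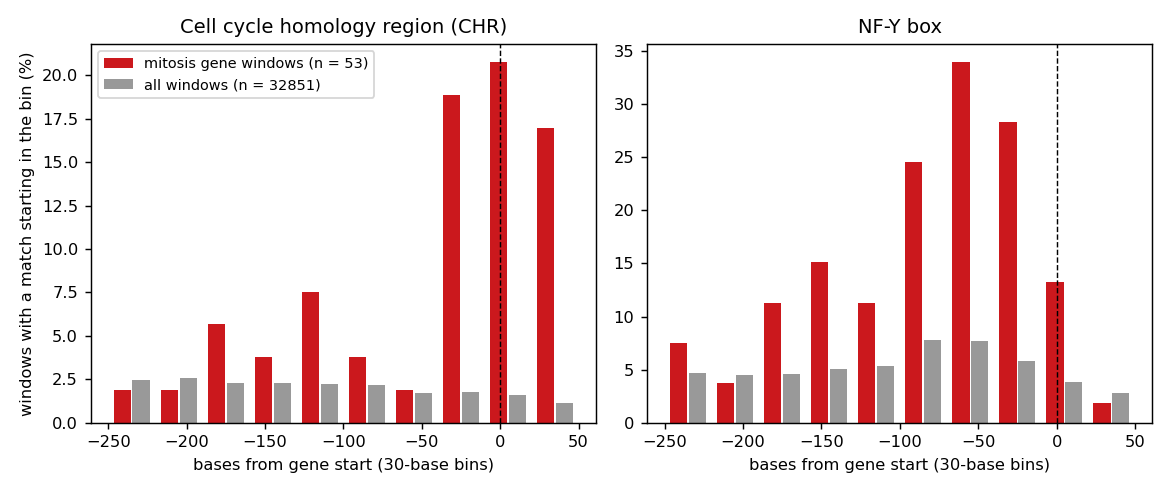
Share of promoter windows, in percent, with a match beginning in each 30-base bin by distance from the gene start, for windows of mitosis genes (red, n = 53) and all windows (grey, n = 32851). The homology region rises in the members' last 3 bins (18.9%, 20.8% and 17.0%), and the NF-Y box, the letters CCAAT, peaks at 34.0% in the bin from -70 to -40, where all windows stood at 7.7%.

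Over all 19938 genes, 147 (0.737%) were higher and 192 (0.963%) lower in stimulated cells in limma at an adjusted p under 0.05, so 43.4% of calls were higher. Leaving out unstimulated array 2 took both counts in limma to 0 (with 3024 genes at an unadjusted p under 0.05). Dropping unstimulated array 1 gave 2 higher and 5 lower, and dropping unstimulated array 3 gave 45 and 43. The fits that lacked stimulated array 1 or stimulated array 2 called 343 and 208 or 361 and 413, and robust variances gave 45 and 66. The marker calls given next rest on the same fit. The share of higher calls was 55.6% after centring arrays on their median and 53.1% after a further quantile normalization. It was 8.20% after centring on 11 reference genes, which shifts the median difference of all genes from 0.00 to -0.36. Of these 11, 10 had a difference above 0 (90.9%, against 49.8% of all genes), with a median of 0.23, and 1 was called higher. Their groups were apart with stimulated arrays higher for 7 (63.6%, against 18.6%). Differences on that scale are thus relative to genes that mostly read higher in stimulated cells themselves. Pairs of arrays within a group correlated at 0.980 to 0.989 across probe sets and none were identical. Of the markers of natural helper cells, 13 of 15 were measured, and Gata3, Rora and Il7r read between 9.87 and 10.97 on all 5 arrays. However, 5 of the 13 (Rora, Id2, Il7r, Kit and Il17rb) were called lower in stimulated cells, with the largest differences in Il17rb (-3.23) and Kit (-2.86). Both stimulated arrays were below all unstimulated ones for 8 of the 13 (61.5%, against 14.0% of all genes) and above them for 3 (23.1%, against 18.6%). Markers of other lung cells were not even over the arrays. The summed log2 values of the endothelial markers (5 of 5 measured) were 40.6, 38.2 and 31.1 on unstimulated arrays 1, 2 and 3 and 26.9 and 28.5 on stimulated arrays 1 and 2. For 5 of 5 neutrophil markers the sums ran from 26.1 to 32.0 unstimulated and from 23.0 to 23.4 stimulated, for 6 of 6 epithelial markers from 38.4 to 44.2 and from 36.1 to 36.5, for 6 of 6 T cell markers from 40.4 to 47.0 and from 39.8 to 41.2, for 6 of 8 macrophage and monocyte markers from 32.1 to 35.4 and from 29.5 to 29.6, and for 11 of 12 dissociation stress genes from 101.7 to 106.5 and from 77.1 to 78.7. The 4 measured erythroid markers, of 6 listed, summed to between 21.9 and 22.3 on every array. The values are log2 intensities with no true zero, so no marker can be given as absent. Unstimulated array 1 thus had the highest endothelial sum and stimulated array 1 the lowest, the reverse of the mitosis genes given next. The epithelial, neutrophil and dissociation stress sums were also highest on unstimulated array 1 and lowest on stimulated array 1. The T cell sum was highest on unstimulated array 2, and the macrophage and monocyte sum was lowest on stimulated array 2. The part of these other cells, or of the stress genes, in the mitosis values was not tested. In bulk samples a change in the number of dividing cells and a change in RNA per dividing cell cannot be told apart.

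The mitosis genes were highest on stimulated array 1, while stimulated array 2 lay close to the unstimulated arrays. Their median value was 5.52, 5.70 and 5.74 on unstimulated arrays 1, 2 and 3, then 6.32 on stimulated array 1 and 5.82 on stimulated array 2. Stimulated array 1 was above the other 4 arrays for 46 of the 58 genes (79.3%), against 21.1% of all genes, and above stimulated array 2 for 52 (89.7%), against 37.8%. Stimulated array 2 was the higher of the pair for 3 members (5.17%), against 40.3% of all genes. The remaining genes had equal values on both, which lowers both shares of all genes. After centring on the reference genes, stimulated array 1 was the highest for 26 members (44.8%), against 6.14% of all genes. After median centring it was for 51 (87.9%, against 36.6%), and after quantile normalization for 49 (84.5%, against 24.0%). It was above stimulated array 2 for 55 members after median centring (94.8%, against 60.4% of all genes). After quantile normalization that count was 53 (91.4%, against 50.8%), and after centring on the reference genes 48 (82.8%, against 25.2%). Stimulated array 2 lay within the range of the unstimulated arrays for 35 of the 58 (60.3%, against 48.9% of all genes) and above it for 14 (24.1%, against 29.6%). Unstimulated array 1 was the lowest of the 5 for 34 (58.6%, against 21.1%). Relative to the mean of the unstimulated arrays, the median member differed by 0.51 on stimulated array 1 and by 0.08 on stimulated array 2, where the median of all genes was 0.00 on both.

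**Figure D2:**
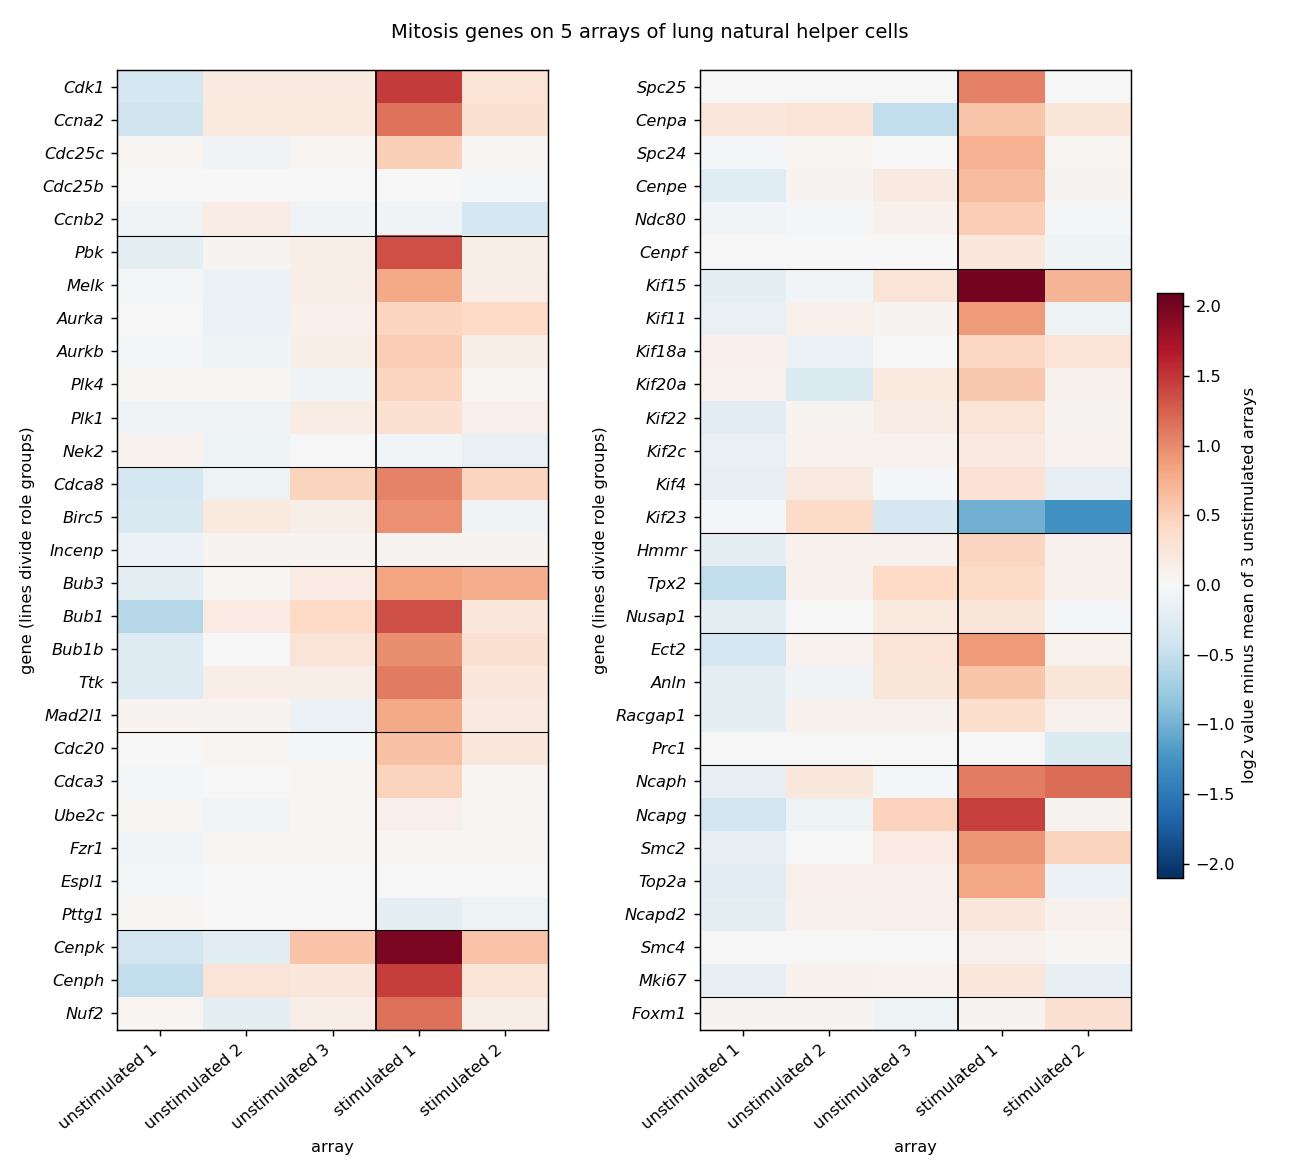
Log2 value of each of the 58 mitosis genes (rows, in 11 role groups divided by lines) on each of 5 arrays (columns), minus that gene's mean over the 3 unstimulated arrays (colour scale, red higher, blue lower). The column of stimulated array 1 is red for most genes, that of stimulated array 2 is mostly pale, and Kif23 is the one gene that is strongly blue on both.

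No mitosis gene passed the test between the groups. In limma, 0 of 58 were called in either direction at an adjusted p under 0.05 (background 0.737% higher, 0.963% lower and 1.7% in all), and the adjusted p-values ran from 0.0614 to 0.958. At an unadjusted p under 0.05 there were 7 higher and 2 lower, or 15.5% of the members, against 11.3% higher, 8.58% lower and 19.9% in all over all genes. The fitted difference was above 0 for 52 of the 58, and its median was 0.34, against 0.00 over all genes. The difference changed sign for 25 members after centring on the reference genes and for 8 without stimulated array 1. The median of the members was 0.08 without stimulated array 1 and 0.51 without stimulated array 2. After centring on the reference genes it was -0.03, where the median of all genes was -0.36. The groups did not overlap, with both stimulated arrays higher, for 13 members (22.4%, against 18.6% of all genes), and with both lower for 2 (3.45%, against 14.0%). The share called was thus no higher than in the background, and the distance between the stimulated arrays, where the members' counts were furthest from those of all genes, has no replicate.

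Other settings called a few members. Aurka, Bub3 and Ncaph were called higher among genes above the median of all the probe sets (36 members, background 7.96% higher and 6.91% lower), after quantile normalization (background 4.14% and 3.66%) and after median centring (background 3.31% and 2.64%). After centring on the reference genes, Bub3, Cdk1, Cenpk, Kif15 and Ncaph were called higher (background 4.38%) and Ccnb2, Cdc25b, Kif23, Nek2, Prc1 and Pttg1 lower (background 49.1%). Without stimulated array 2, Cdc20, Cenpf, Smc4, Spc24 and Spc25 were called higher and none lower (background 1.81% and 2.07%). Without stimulated array 1, none was called higher and Prc1 lower (background 1.72% and 1.04%). Of these 6 genes, Cenpf, Smc4, Spc25 and Prc1 had nearly equal values on the unstimulated arrays.

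**Figure D3:**
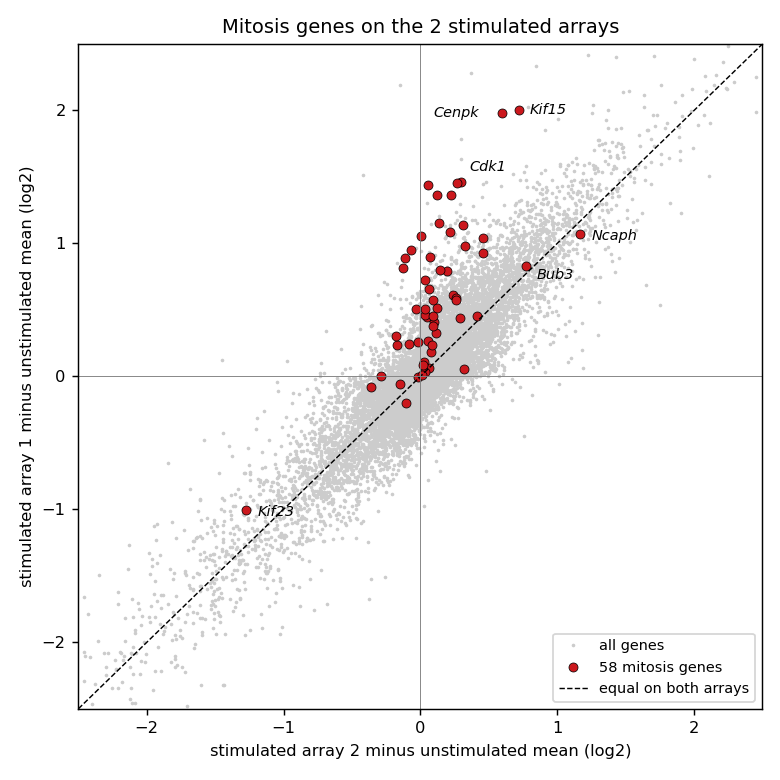
Each gene's log2 value on stimulated array 1 (vertical) and stimulated array 2 (horizontal), both minus the mean of the same 3 unstimulated arrays, for all genes (grey) and the 58 mitosis genes (red); the dashed line marks equal values, and 109 genes lie beyond the axes at 2.5. Of the red points, 52 lie above the line, while Ncaph and Bub3 lie near it among the genes high on both arrays and Kif23 lies near it among those low on both.

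The deposited values repeat between arrays. To 5 decimals, 32 of the 58 members (55.2%) held the same value on at least 2 arrays, against 62.0% of all genes. On stimulated array 2, 21 members had exactly the value of an unstimulated array (36.2%, against 37.2%), and on stimulated array 1 there were 7 (12.1%, against 35.2%). Spc25, for example, read 5.71 on unstimulated arrays 1 and 3 and on stimulated array 2, and Espl1 read 4.98 on every array but unstimulated array 1, where it read 4.96. Where such repeats set the spread of a gene, its standard error (SE) is not an ordinary measure of noise. In limma the variances are also pooled over all genes, of which 1304 held 1 value on all 5 arrays. The SE and adjusted p of genes without repeats, and the 0 calls among the 58, thus depend on the repeats too. A fit limited to the 7579 genes with 5 different values, an alternative chosen after the data were seen, left 26 members. It called Aurka, Bub3, Kif15, Ncaph and Smc2 higher and Kif23 lower, where it called 20.4% and 15.3% of all its genes. In that fit the SE was 0.13 for Aurka and 0.37 for Kif15, against 0.08 and 0.47 in the fit on all genes.

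Of the 5 genes of cyclins, CDK1 and its activating phosphatases, Cdk1 and Ccna2 had both stimulated arrays above all unstimulated ones (18.6% of all genes did). In this group 3 were highest on stimulated array 1 (21.1% of all genes were). Cdk1, the kinase that starts mitosis, read 5.30, 5.87 and 5.85 on unstimulated arrays 1 to 3, and 7.13 and 5.97 on stimulated arrays 1 and 2. The stimulated arrays were both above the unstimulated ones, but array 2 by only a little, and the difference of 0.88 ± 0.45 (SE, n = 3 and 2 arrays) did not pass in limma (adjusted p = 0.428). Ccna2, which codes for cyclin A2, read 5.32, 5.96 and 5.96 against 6.88 and 6.06 (0.73 ± 0.37 SE, adjusted p = 0.429). Ccnb2, which codes for cyclin B2, did not follow: it read 7.21, 7.44 and 7.21 unstimulated and 7.21 and 6.92 stimulated. The phosphatase gene Cdc25b stayed between 6.21 and 6.24 on all 5 arrays. Cdc25c read 4.33, 4.22 and 4.33, then 4.80 and 4.33, and its mean over the arrays lay below the lower quartile (4.49) of the probe sets.

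Of the 7 mitotic kinases, 6 were highest on stimulated array 1 (21.1% of all genes were). Aurka, the kinase of centrosomes and spindle poles, was the member of this group with both stimulated arrays apart from the rest, at 6.53 and 6.49 against 6.08, 5.96 and 6.19. Its difference was 0.43 ± 0.08 SE, 1.35-fold, with an unadjusted p of 0.00748 and an adjusted p of 0.101 in limma. The adjusted p was 0.0453 among genes above the median, 0.0406 after quantile normalization and 0.0460 after median centring, within a range of 0.0395 to 0.691 over all alternatives. Pbk, which codes for a mitotic kinase of the MAP kinase kinase type, read 4.87, 5.12 and 5.18 unstimulated, 6.42 on stimulated array 1 and again 5.18 on stimulated array 2 (0.74 ± 0.43 SE). Melk showed the same shape, at 5.22, 5.14 and 5.40 and then 6.05 and 5.40. Aurkb, the kinase of the chromosomal passenger complex, read 5.77, 5.71 and 5.93 and then 6.32 and 5.93. Plk1, which acts at entry into mitosis and at kinetochores, read 4.79, 4.80 and 5.03, then 5.20 and 4.99. Plk4, the kinase of centriole duplication, ran from 7.04 to 7.15 on the unstimulated arrays and read 7.55 and 7.15 on the stimulated ones. Nek2, a kinase of centrosome separation, was the exception, at 5.67, 5.51 and 5.61 and then 5.54 and 5.45.

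The chromosomal passenger subunits differed among themselves. Cdca8, which codes for borealin, read 4.87, 5.14 and 5.72 unstimulated and 6.28 and 5.70 stimulated, so that its unstimulated arrays spread over 0.85, more than the difference (0.75 ± 0.35 SE, adjusted p = 0.392). Birc5, which codes for survivin, read 6.26, 6.78 and 6.70, then 7.53 and 6.51. Its difference of 0.44 ± 0.39 SE turned to -0.07 without stimulated array 1. Incenp, the scaffold of the complex, read 6.07, 6.26 and 6.26 and then 6.26 on both stimulated arrays.

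The spindle checkpoint was the group in which most members had both stimulated arrays above all unstimulated ones, 4 of 5 (18.6% of all genes did). Bub3, which docks checkpoint proteins at kinetochores, read 7.15, 7.36 and 7.51 unstimulated and 8.17 and 8.11 stimulated. The stimulated arrays nearly coincided, and the difference was 0.80 ± 0.12 SE, 1.74-fold (adjusted p = 0.0810 in limma). The adjusted p was 0.0327 among genes above the median, 0.0285 after quantile normalization, 0.0409 after median centring and 0.0299 after centring on reference genes, within a range of 0.0100 to 0.244 over all alternatives. In the other members stimulated array 1 stood well above stimulated array 2. For Bub1b, Ttk and Mad2l1, array 2 was above the unstimulated arrays by only a little. Bub1, a checkpoint kinase, read 4.62, 5.39 and 5.64, then 6.58 and 5.44 (0.79 ± 0.53 SE, adjusted p = 0.475). Bub1b, which codes for the checkpoint protein BubR1, read 5.22, 5.48 and 5.77, then 6.47 and 5.81 (0.66 ± 0.29 SE). Ttk, the checkpoint kinase also called Mps1, read 4.26, 4.67 and 4.67, then 5.62 and 4.75 (0.65 ± 0.33 SE). Apart from stimulated array 1, its values lay near the lower quartile (4.49) of all probe sets. Mad2l1, whose product holds back the anaphase promoting complex, read 7.25, 7.25 and 7.07, then 7.98 and 7.38 (0.50 ± 0.22 SE). None of these 4 passed the test.

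Among the role groups of more than 1 gene, those around the anaphase promoting complex differed least on stimulated array 1. Their median there was 0.07 above the unstimulated mean, with members from -0.20 (Pttg1) to 0.61 (Cdc20). Cdc20, which activates the complex in mitosis and is the target of the checkpoint, read 5.71, 5.75 and 5.67 unstimulated and 6.32 and 5.96 stimulated, with groups apart (0.43 ± 0.13 SE, unadjusted p = 0.0332, adjusted p = 0.201). Fzr1, which codes for the activator Cdh1 and acts at mitotic exit and in G1, read 6.41 on unstimulated array 1 and 6.50 on the other 4 arrays. Ube2c, the ubiquitin-conjugating enzyme of the complex, stayed between 5.03 and 5.20. Cdca3, a mitotic entry factor, read 5.60, 5.65 and 5.68, then 6.11 and 5.68. Pttg1, which codes for securin, the inhibitor of separase, was lower on both stimulated arrays, at 9.03 and 9.13 against 9.26, 9.21 and 9.21. That difference was small (-0.15 ± 0.04 SE, 1.11-fold, unadjusted p = 0.0204) and did not pass after adjustment (adjusted p = 0.158). After centring on reference genes it was -0.52 (adjusted p = 0.0159), on a scale where all genes shift down, within a range of 0.0159 to 0.440 over all alternatives.

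All 9 kinetochore and centromere genes were highest on stimulated array 1 (21.1% of all genes were). None had groups apart, where 18.6% of all genes were apart higher and 14.0% apart lower. Cenpk, a subunit of the constitutive centromere network, read 5.44, 5.60 and 6.42 unstimulated, 7.80 on stimulated array 1 and 6.42 on stimulated array 2. Array 2 thus matched the highest unstimulated array, and the difference of 1.29 ± 0.59 SE, 2.44-fold, did not pass (adjusted p = 0.378). Cenph, of the same network, read 4.85, 5.63 and 5.61, then 6.82 and 5.63 (0.86 ± 0.50 SE). In the NDC80 complex, which binds microtubules, Nuf2 read 5.11, 4.87 and 5.21, then 6.22 and 5.20 (0.65 ± 0.36 SE), and Spc25 read 6.76 on stimulated array 1 against 5.69 to 5.71 on all the other arrays (0.53 ± 0.35 SE). Without stimulated array 2, Spc25 differed by 1.05 with an adjusted p of 0.0244, within a range of 0.0244 to 0.894 over its alternatives. Spc24 read 5.49, 5.58 and 5.55, then 6.27 and 5.58, and Ndc80 itself read 6.28, 6.32 and 6.42, then 6.85 and 6.31. The motor Cenpe read 5.05, 5.38 and 5.51, then 5.97 and 5.38, and Cenpf, a large kinetochore protein, read 5.06 on the 3 unstimulated arrays, then 5.30 and 4.97. Cenpa, the histone H3 variant that marks centromeres, was lowest on unstimulated array 3 (7.49, 7.52 and 6.74, then 7.83 and 7.51).

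The kinesins held both the largest positive and the largest negative difference of the 58. Kif15, a motor that helps to keep spindle poles apart, read 5.23, 5.38 and 5.71 unstimulated and 7.45 and 6.16 stimulated. Both stimulated arrays were above, array 1 by far, and the difference was 1.36 ± 0.47 SE, 2.57-fold (unadjusted p = 0.0481, adjusted p = 0.244). It was 0.72 without stimulated array 1 and 2.01 without stimulated array 2. Kif23, a motor of the central spindle and midbody, went the other way, at 7.52, 7.96 and 7.22 unstimulated and 6.57 and 6.30 stimulated. Its groups did not overlap, and the difference of -1.14 ± 0.27 SE, 2.20-fold lower, had an unadjusted p of 0.0161 and an adjusted p of 0.141. It stayed below 0 in all 15 alternatives, from -1.50 to -0.94, although groups that do not overlap fix that direction when arrays are left out. Racgap1, whose product forms the centralspindlin complex with that of Kif23, read 5.29, 5.56 and 5.56, then 5.85 and 5.56. Kif18a, a motor that shortens microtubules at aligned chromosomes, had groups apart by a smaller step, at 5.06, 4.84 and 4.97 against 5.40 and 5.25 (0.37 ± 0.09 SE, adjusted p = 0.151). Kif11, the motor Eg5 that separates spindle poles, read 6.11, 6.37 and 6.32, then 7.16 and 6.16. The chromosome motor Kif22 (5.54 to 5.92 unstimulated, 6.03 and 5.82 stimulated), Kif4 (5.26 to 5.62, then 5.73 and 5.25), the microtubule depolymerase gene Kif2c (4.17 to 4.39, then 4.50 and 4.39) and Kif20a (5.06 to 5.57, then 5.93 and 5.45) showed narrower steps with stimulated array 1 on top.

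**Figure D4:**
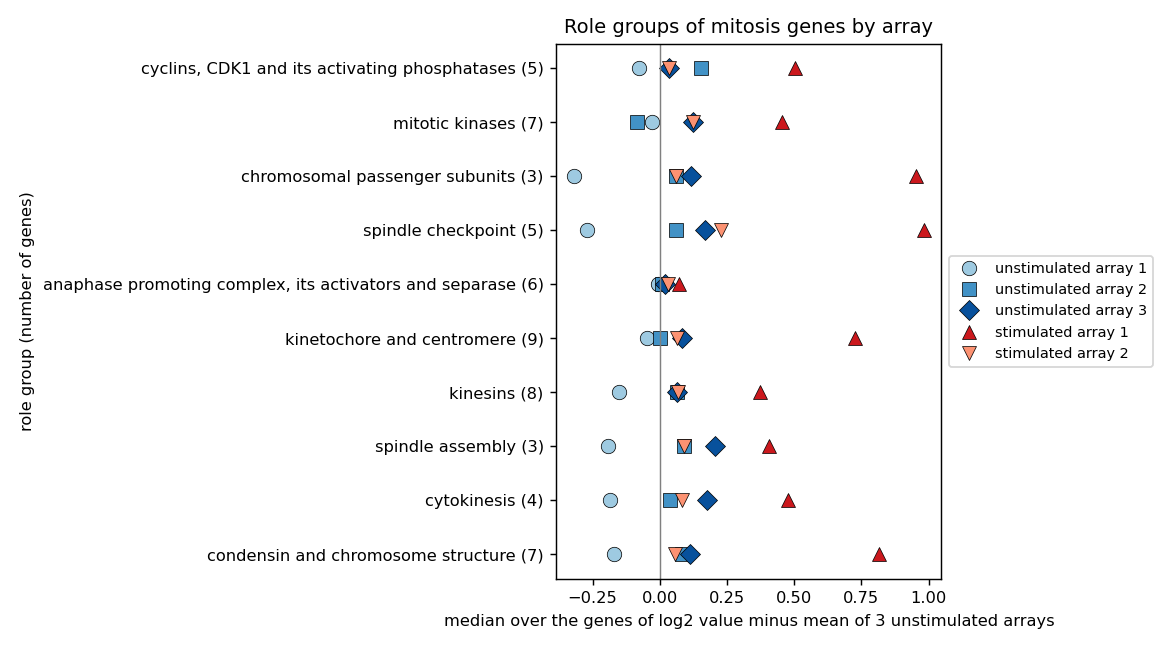
Median over the genes of each role group (rows, with the number of genes) of the log2 value minus each gene's unstimulated mean, for each of 5 arrays; Foxm1, the lone transcription factor, is not drawn. Stimulated array 1 (red triangles) stands right of the other arrays, from 0.07 for the anaphase promoting complex group to 0.98 for the spindle checkpoint, while stimulated array 2 (inverted triangles) lies between 0.03 and 0.23.

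Of the 3 spindle assembly and 4 cytokinesis genes, none had groups apart (18.6% of all genes were apart higher and 14.0% lower). Groups this small could hold none at those shares. The microtubule nucleator gene Tpx2 read 5.19, 5.80 and 6.13 unstimulated and 6.11 and 5.80 stimulated, all of it inside or at the edge of the unstimulated range. Nusap1, which bundles spindle microtubules, read 5.20, 5.37 and 5.59, then 5.65 and 5.37, and Hmmr, a spindle and hyaluronan binding protein gene, read 4.22, 4.49 and 4.49, then 4.85 and 4.49. In cytokinesis, Ect2, the exchange factor that switches on RhoA at the cleavage site, read 4.93, 5.37 and 5.59, then 6.20 and 5.37 (0.49 ± 0.36 SE). Anln, which codes for the ring scaffold anillin, read 4.43, 4.55 and 4.88, then 5.20 and 4.88 (0.42 ± 0.19 SE). Prc1, which bundles the central spindle, read 5.92 on 4 arrays and 5.63 on stimulated array 2.

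Condensin, the ring complex that compacts chromosomes, held the gene nearest to the threshold. Ncaph, the kleisin subunit of condensin I, read 5.57, 5.95 and 5.69 unstimulated and 6.81 and 6.91 stimulated, and it was one of 2 members with their highest value on stimulated array 2. Its groups were well apart, and the difference of 1.12 ± 0.14 SE, 2.18-fold, had an adjusted p of 0.0614 in limma (unadjusted p = 0.00178). That adjusted p was 0.0231 among genes above the median, 0.0224 after quantile normalization, 0.0301 after median centring and 0.000772 after centring on reference genes, within a range of 0.000772 to 0.207 over all alternatives. Smc2, a core subunit shared by both condensins, read 7.05, 7.22 and 7.40, then 8.16 and 7.68, also with groups apart (0.70 ± 0.20 SE, unadjusted p = 0.0284, adjusted p = 0.185). Its partner Smc4 read 9.56 on all 3 unstimulated arrays, then 9.65 and 9.58. Ncapg, another subunit of condensin I, read 5.89, 6.16 and 6.75, then 7.70 and 6.32 (0.75 ± 0.56 SE), and Ncapd2 read 6.07, 6.35 and 6.38, then 6.50 and 6.35. All of these subunits had stimulated array 1 above every unstimulated array (28.2% of all genes did), but they differed on stimulated array 2. That array was above the unstimulated range for Ncaph, Smc2 and Smc4 and within it for Ncapg and Ncapd2. Top2a, the topoisomerase that untangles sister DNA, read 7.47, 7.80 and 7.80, then 8.51 and 7.56. It is the one member with a second probe set, which lay between 4.40 and 4.76, near the lower quartile (4.49) of all probe sets. Unlike the first, the second was lowest on stimulated array 1 (4.40, and 4.42 on stimulated array 2), but values this dim cannot be told from background here. That limit holds as well for the members of lowest mean, Kif2c, Cdc25c, Hmmr, Anln and Ttk.

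Mki67, which codes for the proliferation marker Ki-67, read 6.73, 6.99 and 6.97 unstimulated and 7.13 and 6.73 stimulated. Its highest and lowest values were on the 2 stimulated arrays, and the difference of 0.03 ± 0.17 SE (adjusted p = 0.958) changed sign to -0.05 without unstimulated array 1, -0.17 without stimulated array 1 and -0.33 after centring on reference genes. Foxm1, the transcription factor that activates many genes of this set, read 6.07, 6.07 and 5.91, then 6.07 and 6.34, and was the other member with its highest value on stimulated array 2.

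**Figure D5:**
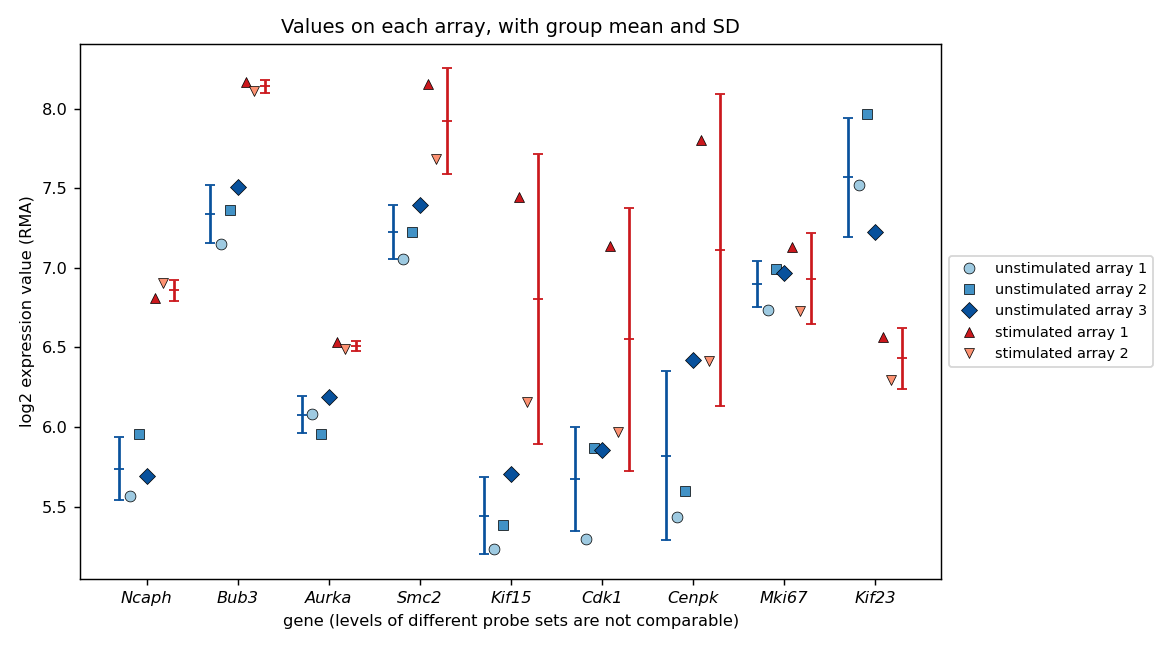
Log2 values of 9 mitosis genes on each of 5 arrays (points), with the mean and SD of the 3 unstimulated arrays (blue bars) and the 2 stimulated arrays (red bars); levels of different genes are not comparable. Ncaph, Bub3 and Aurka have both stimulated arrays together above the unstimulated ones, Kif15, Cdk1 and Cenpk are high on stimulated array 1, and both stimulated arrays are below the others for Kif23.

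Stimulated array 1 was also the highest for most further mitosis and replication genes. Of 99 further mitosis genes listed, 89 were measured, and limma called none higher or lower (0.737% and 0.963% of all genes). At an unadjusted p under 0.05 in limma there were 22 (24.7%, against 19.9% of all genes). The median difference of the 89 was 0.21, and stimulated array 1 was the highest of the 5 for 54 of them (60.7%, against 21.1% of all genes). The largest positive differences were in Cdca7, a gene of the cell division cycle associated class (5.65, 5.85 and 6.33, then 7.26 and 6.67), the centromere gene Cenpw (5.85, 5.38 and 6.06, then 7.40 and 6.06) and the kinetochore gene Mis12 (6.76, 6.82 and 7.24, then 7.76 and 7.90). The largest negative ones were in Fam83d, whose product brings a kinase to the spindle (6.68, 6.74 and 6.09, then 5.35 and 4.78), Lin54, the DNA-binding subunit of MuvB (9.21, 9.19 and 8.43, then 7.85 and 8.23), and the centromere gene Cenpl (7.18, 7.34 and 6.86, then 6.49 and 6.17). The stimulated arrays were lower than each unstimulated array for these last 3 and higher for Mis12 and Cdca7, with adjusted p-values from 0.113 to 0.438 over the 6 genes. Of 44 DNA replication genes, 43 were measured and none was called, with 7 at an unadjusted p under 0.05 (16.3%, against 19.9% of all genes). Stimulated array 1 was the highest for 37 of these (86.0%), and the groups were apart with stimulated arrays higher for 19 (44.2%, against 18.6% of all genes and 22.4% of the mitosis members). Relative to the unstimulated mean, the median replication gene differed by 0.63 on stimulated array 1 and by 0.18 on stimulated array 2, where the mitosis members differed by 0.51 and 0.08.

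Gaps between arrays of the same group were compared across the members. The gap between stimulated arrays 1 and 2 had a median of 0.40 over the 58 genes, and the gap between unstimulated arrays 3 and 1, which shares no array with it, had a median of 0.18. Across the 58 genes these gaps correlated at Pearson r = 0.55 (Spearman rho = 0.51), against r = 0.12 (rho = 0.12) across all 19938 genes and r = 0.19 (rho = 0.19) across the 43 replication genes. The gap between unstimulated arrays 2 and 1, which shares no array with the stimulated ones either, correlated less with that between the stimulated arrays, at r = 0.39 (rho = 0.33) across the 58, r = 0.14 (rho = 0.11) across all genes and r = 0.0073 (rho = 0.029) across the replication genes. These correlations are across genes, which share arrays and probe signal and are not independent replicates. The gap between the stimulated arrays had a median of 0.36 over the 32 members with TTTGAA in their promoter window and 0.50 over the 16 without it. The median difference between the groups was 0.31 with TTTGAA and 0.40 without it. The count of members highest on stimulated array 1 went the other way, at 28 of the 32 and 11 of the 16. None of these contrasts was tested.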

How the data were processed

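The authors deposited log2 values from RMA, a background correction, normalization and summary of array probes named in the submitters' processing notes. Its version and which arrays it was run on together are not given in the sources used here. Per the labels' protocols, 6 micrograms of Trizol-extracted RNA gave the biotin-labelled cRNA hybridised to each Affymetrix array. Of 35556 probe sets, 21789 had 1 gene symbol in the platform annotation, 1621 had several and named no gene, and 12146 were not in the annotation table. Each gene was represented by its probe set of highest mean. There are no detection calls. Precision is limited by the number of arrays.

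All 19938 genes entered one unfiltered lmFit and eBayes fit (limma 3.58.1, R 4.3.3), with Benjamini-Hochberg adjustment and calls at an adjusted p under 0.05. Differences are on the log2 scale, stimulated minus unstimulated, and each SE comes from that fit. An exact permutation test of 3 against 2 arrays cannot go below p = 0.1, so none was run. The script was tested on simulated data. Members, lists and tests were chosen with earlier results of these data known. Every member could be named, and of the further mitosis genes the called ones and otherwise the 3 highest and 3 lowest differences. Alternatives were an intensity trend, robust variances, array weights, a filter on dim genes, the mean of a gene's probe sets, 3 scalings, a replicate block and leaving out each array. Promoter letters came from RefSeq (GRCm38.p6). Plots used matplotlib 3.10.9 in Python 3.11.15.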

Additional observations from a re-analysis of the deposited data

How the results depend on the processing

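Over the 5 fits that each left out 1 array, limma called 0 to 361 genes higher and 0 to 413 lower over all genes, 0 to 5 mitosis members higher and 0 to 1 lower, and 0 to 7 further mitosis genes higher and 0 to 1 lower, and the members' median difference ran from 0.080 (without stimulated array 1) to 0.51 (without stimulated array 2). The 5 called without stimulated array 2 were Cdc20, Cenpf, Smc4, Spc24 and Spc25, and the lone array was assumed to vary like the other group; the member called lower without stimulated array 1 was Prc1. Without unstimulated array 2 no gene was called, with 3024 at an unadjusted p under 0.05. Robust variances gave 45 higher and 66 lower over all genes. The filter on dim genes gave 824 and 716 (7.96% and 6.91%), with 3 members (of 36 left) and 1 further gene (of 64 left) higher. Quantile normalization gave 825 and 729 (4.14% and 3.66%), and median centring 660 and 526 (3.31% and 2.64%), each with 3 members higher. The 3 were Aurka, Bub3 and Ncaph in each of those fits. Centring on reference genes gave 874 and 9789 (4.38% and 49.1% of all genes), with 5 members higher and 6 lower. In that fit 6 further genes (of 89) were higher and 22 lower, and the members' median was -0.025. Genes with 5 different values gave 1548 and 1161 (20.4% and 15.3% of the 7579). Of the 26 members left, 5 were higher and 1 lower, and of the 52 further genes left, 12 were higher and 3 lower. The cause of these shifts was not tested. Of the 58 members, the difference changed sign for 25 after centring on reference genes, for 8 without stimulated array 1, for 4 without unstimulated array 1 and for Cdc25b alone (0.01) after quantile normalization and after median centring, and for none under the other alternatives. The 8 were Birc5, Cenpf (-0.08), Kif11 (-0.11), Kif4 (-0.18), Mki67, Ndc80 (-0.03), Nusap1 (-0.02) and Top2a (-0.13), and the 4 were Incenp (-0.00103), Kif4 (-0.02), Mki67 and Tpx2 (-0.00708). Mki67 differed by -0.33 with reference genes, by -0.05 without unstimulated array 1 and by -0.17 to 0.24 over the 5 fits without an array, and Birc5 by -0.069 to 0.95 over those fits, lowest without stimulated array 1. The intensity trend, array weights and the mean of probe sets changed no count of members.

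Replicate numbers 1 and 2 occur in both groups, but nothing in the labels pairs them, and deviations of same-numbered arrays correlated at -0.145 and -0.0582. With the replicate number as a block, limma called 0 genes higher and 0 lower over all genes, with 3568 at an unadjusted p under 0.05 (3973 without the block), and the members' median was 0.38. Dim probe sets cannot be told from background here: the mean of 22 of the 58 members lay under the median of all probe sets (5.64).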
